A study of Mus musculus with 53 samples.

Results

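The H3K4me1 landscape of SOX2+ cells from KOSR culture was compared with that of embryonic stem cells (ESCs) in the naive media 2iLIF and NACL, using 6 of the 53 samples of a mouse CUT&RUN series, 35 of which have a peak list. In CUT&RUN an antibody directs a nuclease to a chromatin mark, and sequencing of the fragments that it frees shows where the mark lies. All cells were SGGC ESCs, an E14JU line in which endogenous SOX2 is fused to GFP and GATA6 to mCherry. The SOX2+ group (libraries A and B, both of clone B12) was grown in KnockOut Serum Replacement medium (KOSR) and sorted by flow cytometry for SOX2-GFP single positive cells. The naive group held 2iLIF libraries of clones B9 and B12 and NACL libraries of clones B9 and B12, with no sort named in their labels. 2iLIF combines PD0325901, an inhibitor of MEK that blocks ERK signalling, with CHIR99021, an inhibitor of GSK3 that stabilises β-catenin and so activates Wnt target genes, and the cytokine LIF. NACL is N2B27 with Activin A, CHIR99021 and LIF, and so has CHIR99021 but no MEK inhibitor. The methods speak of sorted cells for CUT&RUN in general and name no gate for the naive cultures. Medium, sorting as far as the labels give it, and experiment differ together between the groups and cannot be told apart. Nothing in the labels says whether libraries A and B came from separate cultures. The 2 NACL titles also carry a number that the other titles lack and that no source used here explains.

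H3K4me1 (monomethylation of lysine 4 of histone H3) is deposited mainly by the methyltransferases KMT2C and KMT2D. It marks enhancers, both those in use and those that are primed, and the flanks of promoters. Enhancers in use usually also carry H3K27ac, which is why acetylation and SOX2 binding were read at the same regions. H3K4me1 shows where regulatory DNA is marked and does not measure expression.

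The deposited lists held 58085 and 78354 H3K4me1 peaks in SOX2+ A and B, 33252 and 52599 in 2iLIF B9 and B12, and 30698 and 24700 in NACL B9 and B12. Each library was therefore held to its 24700 strongest peaks by highest signal, which left 42.5% and 31.5% of the SOX2+ peaks, 74.3% and 47.0% of the 2iLIF peaks, and 80.5% and 100% of the NACL peaks. Signal scales differ between libraries and read depth is unknown, so signal ranked peaks within a library only. Peaks sharing at least 1 bp were merged into 43373 regions. Of these, 2286 had a peak in both SOX2+ libraries and in no naive library (SOX2+-only regions, 5.27% of all merged regions), and 1544 had a peak in all 4 naive libraries and in neither SOX2+ library (naive-only regions, 3.56%). A further 7232 regions (16.7%) were marked in all 6 libraries. Requiring 2 libraries is easier to meet than requiring 4, so the sizes of the first 2 classes cannot be read against each other. The peaks just inside and just outside the limit were close. In SOX2+ A the last held peak and the first one left out both had a highest signal of 12, and their total signals were 9171 and 9164.

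The centres of the regions that ranked first are printed as 300 bases around the position of the highest signal, 5′ to 3′ on the plus strand of GRCm38.p6. The set comprises the first 3 SOX2+-only and naive-only regions and the first 2 of those marked in all 6 libraries. Ranking used the mean rank of the best peak in the libraries that define the class. Capitals mark a match to any of 10 motif strings, searched on both strands. The pluripotency factors were represented by the SOX string CATTGT, by the octamer ATGCAAAT of OCT4, by the KLF string CCACACCC and by the ESRRB string TCAAGGTCA. The string TCAAAG stood for TCF and LEF factors, which carry β-catenin to Wnt targets. The string TGANTCA stood for AP-1, which responds to mitogens, and CATTCC for TEAD factors, the partners of YAP. The string AGATAA stood for GATA factors of the endoderm, GGATTA for OTX factors of the epiblast and CCGGAAG for ETS factors, which act downstream of ERK.
SOX2+-only, nearest gene Fam107a, chr14:8286570-8286869: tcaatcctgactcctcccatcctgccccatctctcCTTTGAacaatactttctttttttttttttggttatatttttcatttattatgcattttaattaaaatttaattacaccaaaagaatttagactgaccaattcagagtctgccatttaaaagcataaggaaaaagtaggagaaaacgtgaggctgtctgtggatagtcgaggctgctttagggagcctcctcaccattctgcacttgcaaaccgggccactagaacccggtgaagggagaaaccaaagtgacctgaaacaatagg
SOX2+-only, nearest gene Gm10324, chr13:65990972-65991271: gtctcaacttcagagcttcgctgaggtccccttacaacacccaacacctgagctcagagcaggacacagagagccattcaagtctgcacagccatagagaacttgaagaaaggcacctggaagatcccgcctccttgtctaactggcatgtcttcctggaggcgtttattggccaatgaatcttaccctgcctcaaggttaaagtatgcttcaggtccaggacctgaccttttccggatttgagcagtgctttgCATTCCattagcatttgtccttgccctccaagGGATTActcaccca
SOX2+-only, nearest gene Zfp992, chr4:146457590-146457889: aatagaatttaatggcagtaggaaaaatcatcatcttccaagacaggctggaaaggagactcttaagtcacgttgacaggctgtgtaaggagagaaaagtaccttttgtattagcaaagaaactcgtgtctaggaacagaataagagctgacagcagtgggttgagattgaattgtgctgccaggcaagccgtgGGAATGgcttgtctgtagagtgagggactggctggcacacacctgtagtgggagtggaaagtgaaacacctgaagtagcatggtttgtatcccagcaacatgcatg
naive-only, nearest gene Sgms1, chr19:32318680-32318979: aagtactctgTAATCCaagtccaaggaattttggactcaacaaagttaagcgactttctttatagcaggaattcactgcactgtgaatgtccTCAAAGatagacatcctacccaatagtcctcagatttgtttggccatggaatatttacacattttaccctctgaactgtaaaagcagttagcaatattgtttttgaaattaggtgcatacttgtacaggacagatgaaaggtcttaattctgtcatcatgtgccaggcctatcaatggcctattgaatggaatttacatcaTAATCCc
naive-only, nearest gene Cd24a, chr10:43686665-43686964: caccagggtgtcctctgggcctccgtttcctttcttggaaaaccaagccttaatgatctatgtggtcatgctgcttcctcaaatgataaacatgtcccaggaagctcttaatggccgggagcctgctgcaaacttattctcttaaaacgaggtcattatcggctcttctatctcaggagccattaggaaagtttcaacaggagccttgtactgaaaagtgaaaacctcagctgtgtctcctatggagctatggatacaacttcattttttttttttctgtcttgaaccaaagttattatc
naive-only, nearest gene Dnah8, chr17:30638468-30638767: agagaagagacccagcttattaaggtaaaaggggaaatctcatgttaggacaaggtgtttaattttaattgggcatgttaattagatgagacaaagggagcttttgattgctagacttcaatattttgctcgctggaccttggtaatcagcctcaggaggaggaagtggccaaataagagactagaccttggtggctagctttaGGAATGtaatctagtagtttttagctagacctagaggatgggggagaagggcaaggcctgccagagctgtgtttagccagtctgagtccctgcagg
all 6 libraries, nearest gene Dars, chr1:128407035-128407334: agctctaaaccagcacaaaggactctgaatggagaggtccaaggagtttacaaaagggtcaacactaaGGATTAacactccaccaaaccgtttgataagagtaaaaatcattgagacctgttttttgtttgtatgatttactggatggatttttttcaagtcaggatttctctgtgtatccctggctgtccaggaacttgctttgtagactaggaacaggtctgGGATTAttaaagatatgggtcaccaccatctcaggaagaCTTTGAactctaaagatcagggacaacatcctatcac
all 6 libraries, nearest gene Ccser2, chr14:36914676-36914975: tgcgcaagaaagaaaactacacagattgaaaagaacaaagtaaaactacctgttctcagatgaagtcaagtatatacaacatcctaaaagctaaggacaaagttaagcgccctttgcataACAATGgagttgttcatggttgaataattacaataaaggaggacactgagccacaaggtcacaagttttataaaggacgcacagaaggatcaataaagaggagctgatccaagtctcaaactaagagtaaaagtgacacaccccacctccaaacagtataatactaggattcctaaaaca

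The region near Fam107a (chr14:8286664-8286908, 245 bp, intergenic, 22869 bp from the start site) ranked 9 and 3 among the peaks of SOX2+ A and B. The bases printed for it start before the region, and the only string marked in them lies outside it. The region had an H3K27ac peak in every one of the 6 libraries compared, the naive ones included, but no H3K4me1 peak in the complete list of any naive library. The same held for the Gm10324 region, which ranked 625 and 146 and had a SOX2 peak in every one of the 7 SOX2 libraries. Zfp992, Rex2 and Gm10324, which lie nearest to 3 of the 5 first SOX2+-only regions, belong to gene families with many similar copies, so the assignment of reads to these places is uncertain. The naive-only region at Sgms1, a sphingomyelin synthase gene, spanned chr19:32312815-32331391 (18577 bp) and ranked 277 and 297 in 2iLIF B9 and B12 and 653 and 614 in NACL B9 and B12.

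Replicates of a group shared more of their marked length than libraries of different groups. The SOX2+ pair shared 58.2% of the bases covered by either library, the 2iLIF pair 45.4% and the NACL pair 46.0%. Between groups the shared length was 32.7% to 33.6% for SOX2+ and 2iLIF, 31.2% to 36.7% for SOX2+ and NACL, and 35.3% to 40.6% for 2iLIF and NACL. The highest value between SOX2+ and a naive library thus lay within the range of the values between the 2 naive media. Regions marked in both 2iLIF libraries alone numbered 1985, and those in both NACL libraries alone 1207.

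**Figure D1:**
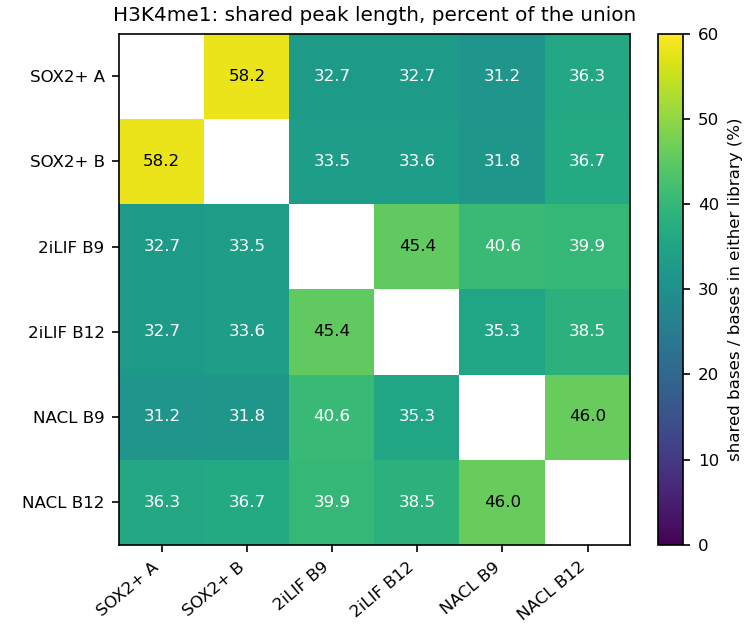
Shared H3K4me1 peak length of each pair of the 6 libraries (rows and columns), as a percentage of the bases covered by either library, at 24700 peaks per library. The SOX2+ pair shared 58.2%, and every pair from different groups shared 40.6% or less.

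The 2iLIF B12 library stood apart in width. Its held peaks covered 138.1 Mb with a median width of 4286 bp, whereas the other 5 libraries covered 71.4 to 79.5 Mb with medians of 2330 to 2526 bp. The mean covered length was 20.2 Mb lower in the SOX2+ group (71.8 ± 0.548 Mb, SD, n = 2) than in the naive group (91.9 ± 30.9 Mb, SD, n = 4; exact permutation test, 2-sided, p = 0.133), and without 2iLIF B12 the difference was 4.75 Mb. With 2 libraries against 4, 0.133 is the smallest p that this test allows, so no single measure could pass 0.05. Under the complete lists the difference turned to 14.1 Mb more in SOX2+ cells. Gene list counts below are therefore also given with scaled lengths and without 2iLIF B12.

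The 2 exclusive classes were relative and not all-or-none. In such populations fewer cells with a mark and less of it per cell cannot be told apart. Of the SOX2+-only regions, 61.8% had a peak in the complete list of at least 1 naive library, and 874 had none. Most of these peaks came from 1 library, since 59.3% of the regions had a peak in the complete list of 2iLIF B12, 10.02% in that of 2iLIF B9, 6.69% in that of NACL B9 and 0% in that of NACL B12, whose list was already complete. Of the naive-only regions, 84.0% had a peak in a complete SOX2+ list (66.1% in A and 78.7% in B), and 247 had none. With all deposited peaks merged, 11304 of 86314 regions were SOX2+-only, 430 were naive-only and 11417 were marked in all 6. The balance between the classes thus moved with the peak numbers that entered it, as the bars for both peak sets show.

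**Figure D2:**
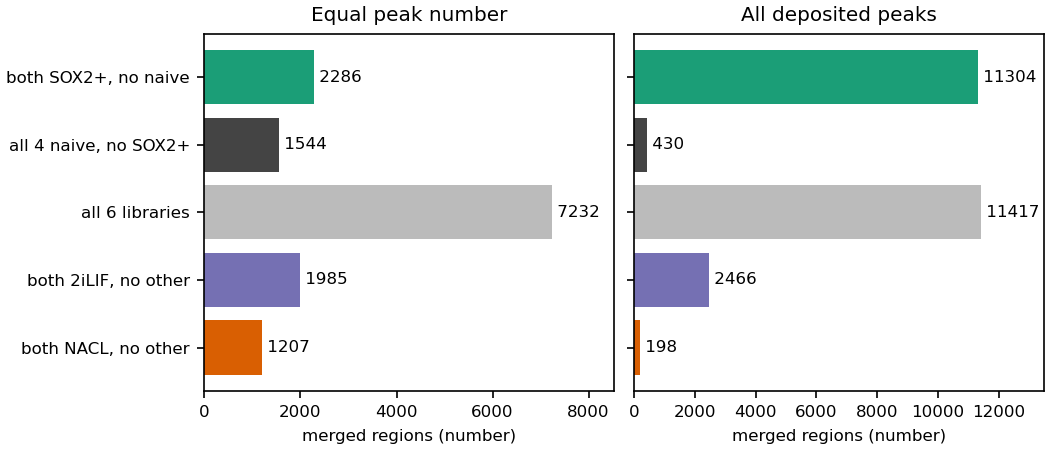
Number of merged H3K4me1 regions (horizontal axis) marked in both SOX2+ and no naive library, in all 4 naive and no SOX2+ library, in all 6, in both 2iLIF libraries alone and in both NACL libraries alone. At 24700 peaks per library (left) the first 2 classes held 2286 and 1544 regions, and with all deposited peaks (right) 11304 and 430.

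SOX2+-only regions were short and of middling strength. Their median width was 2288.5 bp, compared with 5227.5 bp for naive-only regions, 8201.5 bp for regions in all 6 libraries and 3165 bp over all merged regions. Merging peaks of 4 or 6 libraries widens a region, and 1 of the 4 naive libraries had the wider peaks described above. By peak rank, where 0% is the strongest, the SOX2+-only regions lay at a median of 59.0% and 62.9% in SOX2+ A and B. Naive-only regions lay at 39.6% to 47.8% in the naive libraries, and regions marked in all 6 at 21.4% to 25.6%. The shared regions thus had the strongest ranks in each library, and the SOX2+-only regions came from the weaker part of the held peaks. The method set part of this order. A region took the best rank of all its peaks in a library, which favours wide regions, and absence was itself defined by a rank limit.

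SOX2+-only regions lay a median of 18365.5 bp from the nearest annotated start site, naive-only regions 10981.5 bp, regions in all 6 libraries 7080 bp and all merged regions 12373 bp. A promoter, within 1 kb of a start site, was reached by 25.98%, 29.99%, 44.1% and 29.02% of them, respectively. Both measures ran from the edges of a region, so the wider classes reach a start site more often. The promoter share of SOX2+-only regions was close to the 25.8% and 26.1% of all held peaks of SOX2+ A and B. By the position of the highest signal, 46.2% of the SOX2+-only regions lay in introns and 45.9% between genes, whereas 62.4% of the naive-only regions were intronic and 32.5% intergenic. Over whole libraries the promoter share was 25.8% and 26.1% in SOX2+ A and B, 19.2% and 28.8% in 2iLIF B9 and B12, and 23.2% and 24.3% in NACL B9 and B12. The SOX2+ values fell within the naive range (25.9% ± 0.157 against 23.9% ± 3.95; exact permutation test, 2-sided, p = 0.667), and the sign of this difference turned at 5 kb from a start site, where it was −0.652 percentage points.

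Base composition separated the groups without overlap. The mean GC content of the 300 bases around the highest signal of the held peaks was 47.0% and 46.6% in SOX2+ A and B, and 45.5%, 45.1%, 45.3% and 45.7% in 2iLIF B9, 2iLIF B12, NACL B9 and NACL B12. The means were 46.8% ± 0.272 (SD, n = 2) and 45.4% ± 0.247 (SD, n = 4), a difference of 1.38 percentage points (exact permutation test, 2-sided, p = 0.133). CpG dinucleotides, the sites of DNA methylation in mammals, were also denser in the SOX2+ peaks, at 1.27 ± 0.0551 against 1.02 ± 0.0382 per 100 bases (exact permutation test, 2-sided, p = 0.133). Among the classes, the SOX2+-only regions had a GC content of 46.8% and 1.39 CpG per 100 bases, and the naive-only regions 45.3% and 0.970.

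For 6 of the 10 strings the shares of the SOX2+ and naive libraries did not overlap. TEAD strings occurred in 20.39% and 21.05% of the SOX2+ peak centres and in 16.3% to 18.1% of the naive ones (20.7% ± 0.464 against 17.3% ± 0.830; exact permutation test, 2-sided, p = 0.133, adjusted over 10 motifs 0.222). The octamer bound by OCT4 (3.89% against 2.92%), the ETS string (2.36% ± 0.218 against 1.39% ± 0.0183) and the AP-1 string (10.4% against 9.98%) were higher in both SOX2+ libraries than in all naive ones, with the same p. The TCF/LEF string was lower in both SOX2+ libraries (22.5% and 22.6%) than in the naive ones (22.8% to 24.8%), and so was the GATA string (15.4% against 16.8%). The SOX string overlapped, with 17.5% in SOX2+ and 17.6% in naive peaks (exact permutation test, 2-sided, p = 0.933), and KLF, ESRRB and OTX shares overlapped too. The higher GC content of the SOX2+ peaks moved with these shares, and its part in them was not tested.

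The exclusive regions had the same order with wider gaps for the 6 strings that separated the libraries, and the reverse order for KLF and ESRRB. TCF/LEF strings were found in 27.4% of naive-only, 21.7% of SOX2+-only and 23.7% of all merged regions. TEAD strings were found in 15.9%, 22.4% and 18.8%, GATA strings in 18.7%, 14.9% and 16.6%, and ETS strings in 1.42%, 2.84% and 1.83%, in the same order. KLF strings were found in 5.63% of naive-only and 3.76% of SOX2+-only regions and ESRRB strings in 2.40% and 2.23%, whereas over whole libraries both were higher in SOX2+ peaks (5.53% against 4.87%, and 2.64% against 2.25%) with overlap. At least 1 kb from a start site the TCF/LEF shares were 27.3%, 21.7% and 23.9% and the TEAD shares 15.4%, 22.4% and 18.9%, so the order of both held away from promoters. A match in a short string is a description of the letters and not a binding site.

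**Figure D3:**
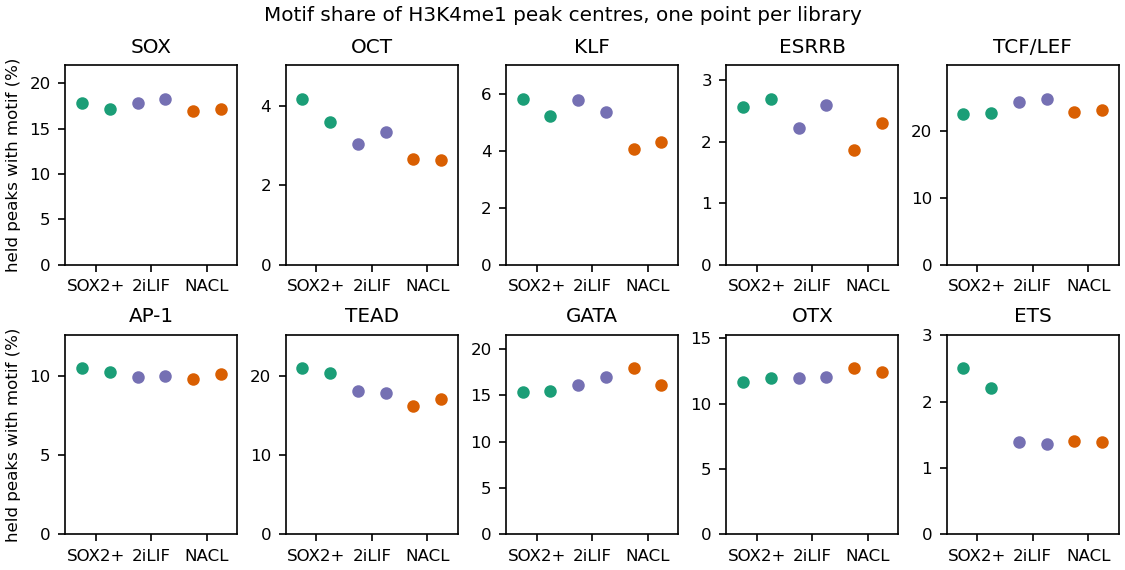
Share of the 24700 held peaks of each library with a motif string in the 300 bases around the highest signal (vertical axes start at 0; 1 point per library, 2 libraries per group). TEAD shares were 20.39% and 21.05% in SOX2+ cells and 16.3% to 18.1% in the naive media, whereas SOX shares overlapped.

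At equal peak numbers H3K27ac, which the choice of regions did not use, separated the groups at the naive-only regions and not at the SOX2+-only regions. Each H3K27ac library was held to 13514 peaks, the complete list of SOX2+ A and a small part of the naive lists, which held 210904 to 401853 peaks. Of the naive-only regions, 5.05% and 6.35% had an H3K27ac peak in SOX2+ A and B, compared with 30.1% and 28.4% in 2iLIF B9 and B12 and 20.9% and 19.1% in NACL B9 and B12. The difference of the means (5.70% ± 0.916, n = 2, against 24.6% ± 5.44, n = 4, SD) was −18.9 percentage points (exact permutation test, 2-sided, p = 0.133). All merged regions also had fewer peaks in SOX2+ cells, with a difference of −7.93 percentage points, and so had the regions marked in all 6 libraries, with −9.43 points (both p = 0.133, exact permutation test, 2-sided), so the gap at naive-only regions was the wider one. Both naive media lay above the SOX2+ libraries, with 2iLIF above NACL.

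At the SOX2+-only regions the acetylated shares were 21.9% and 22.7% in SOX2+ A and B, 21.6% and 21.4% in 2iLIF, and 25.2% and 27.3% in NACL. The groups overlapped (22.3% ± 0.588 against 23.8% ± 2.86; exact permutation test, 2-sided, p = 0.8), and the difference of −1.51 points turned to 2.08 points when H3K27ac peaks were ranked by total signal. At equal H3K27ac peak numbers this difference was thus smaller than the spread of the naive libraries. It was also less negative than the −7.93 points of all merged regions and the −9.43 points of regions marked in all 6 libraries. Against that general difference the acetylated share of SOX2+ cells was thus relatively higher at SOX2+-only regions. With all deposited H3K27ac peaks the shares were 21.9% and 23.4% in SOX2+ cells and 77.5% to 85.0% in naive ESCs, a difference of −59.0 points (exact permutation test, 2-sided, p = 0.133), and those of all merged regions 18.5% and 84.6%, as the naive lists are far longer.

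SOX2 binding separated the groups at both classes and in opposite directions. SOX2, which maintains pluripotency with OCT4, was profiled in 3 SOX2+ libraries (A, A1 and B) and in the 4 naive ones, each held to 8203 peaks. At SOX2+-only regions, 17.8%, 17.1% and 16.3% had a SOX2 peak in SOX2+ A, A1 and B, compared with 11.5% and 12.5% in 2iLIF B9 and B12 and 15.2% and 14.2% in NACL B9 and B12. The means were 17.1% ± 0.744 (SD, n = 3) and 13.3% ± 1.65 (SD, n = 4; exact permutation test, 2-sided, p = 0.0571, the smallest that 3 against 4 allows). At naive-only regions the shares were 5.70%, 5.31% and 5.38% in the SOX2+ libraries, 17.7% and 16.5% in 2iLIF and 12.95% and 11.8% in NACL (5.46% ± 0.208 against 14.7% ± 2.82; exact permutation test, 2-sided, p = 0.0571). Regions marked in all 6 libraries had means of 28.5% and 29.3%, which overlapped (exact permutation test, 2-sided, p = 0.343). All merged regions had lower shares in every SOX2+ library than in any naive one, with means of 11.8% and 12.7% (exact permutation test, 2-sided, p = 0.0571). SOX2 binding thus followed the H3K4me1 difference at both classes, while the share of peaks with the SOX string did not differ beyond the spread. With all deposited SOX2 peaks the groups overlapped at SOX2+-only regions (25.2% ± 5.20 against 21.2% ± 9.10; exact permutation test, 2-sided, p = 0.571).

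**Figure D4:**
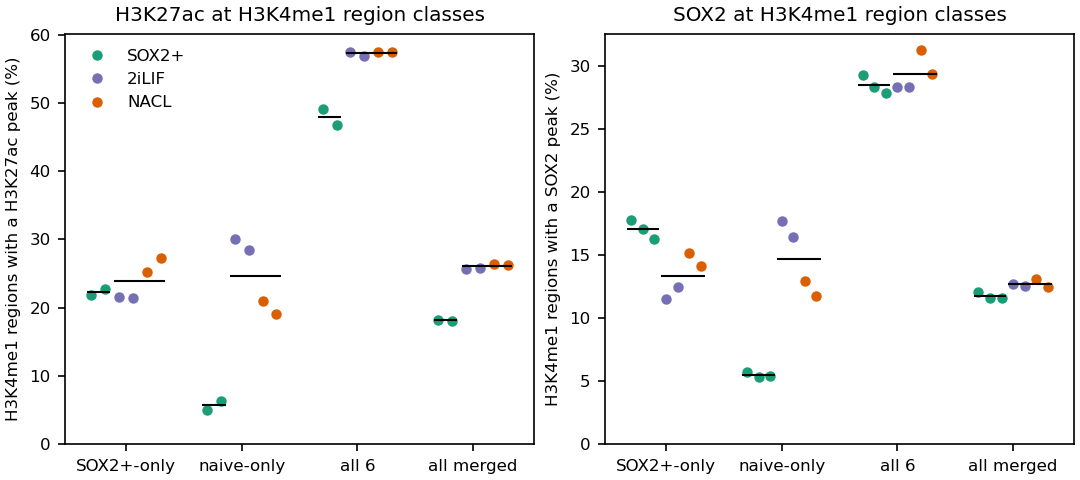
Share of H3K4me1 regions of each class with an H3K27ac peak (left, 13514 peaks per library) or a SOX2 peak (right, 8203 peaks per library); points are libraries and black lines the means of the SOX2+ and of the naive libraries. At naive-only regions the SOX2+ libraries lay below every naive library for both antibodies, and at SOX2+-only regions they lay above every naive library for SOX2 but overlapped them for H3K27ac.

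Cells of the other conditions of the series fell on either side of this division. DP cells, which co-express SOX2 and GATA6 and were sorted from the same KOSR culture, had 1 H3K4me1 library. Held to 18627 peaks, it marked 44.7% of the SOX2+-only and 14.7% of the naive-only regions, against 31.9% of all merged regions. The 2 nEnd libraries (naive extra-embryonic endoderm, the in vitro counterpart of primitive endoderm), held to the same number, marked 11.2% and 11.4% of the SOX2+-only and 31.9% and 28.8% of the naive-only regions, against 26.1% and 22.7% of all merged regions. H3K27ac showed the same order, with 30.2% and 8.68% of the 2 classes in DP cells and 17.5% and 21.3% against 30.2% and 34% in nEnd. Of all merged regions, 21.96% had an H3K27ac peak in DP cells and 27.98% and 31.41% in nEnd, between the 2 classes in each library. SOX2 peaks of DP cells (1378 per library) lay at 3.37%, 2.97% and 2.80% of the SOX2+-only and at 1.04%, 0.907% and 0.648% of the naive-only regions. In the same libraries they lay at 2.28% to 2.41% of all merged regions, between the 2 classes. GATA6 peaks of DP cells (1391 per library) lay at 1.05% to 1.40% and at 0.972% to 1.17%, both below the 1.41% to 1.55% of all merged regions. DP cells thus resembled the SOX2+ cells of the same culture in marks and SOX2, with no excess of GATA6 at either class. These values have no test, since DP histone marks rest on 1 library each and wider regions meet a peak more often. The DP histone libraries carry the same experiment label and clone as SOX2+ A, and the DP SOX2 libraries the same labels as the SOX2 libraries of SOX2+ cells. Experiment, culture and cell state thus cannot be told apart in this resemblance.

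Gene by gene and at equal peak numbers, more genes were called lower than higher in SOX2+ cells, but over all genes the balance of directions turned with scaling. Covered length, the number of kilobases of a gene body and its 20 kb flanks lying under held peaks, was scaled to 1 total per library and tested with limma on log2(kb + 1) for 13740 protein-coding genes with a mean of at least 0.5 kb. At an adjusted p under 0.05, 29 genes were higher (0.211%) and 197 lower (1.43%) in SOX2+ cells, and 2934 genes had an unadjusted p under 0.05. Both SOX2+ libraries are of clone B12 and 2 of the 4 naive ones of clone B9. With clone as a term, or against the naive B12 libraries alone, no gene was called in either direction by limma (smallest adjusted p = 0.146 and 0.259, with 2219 and 2345 genes at an unadjusted p under 0.05), which holds for each call given below. The called genes lay in 26 and 175 separate stretches, as neighbours share a window. Unscaled lengths did not overlap between the groups at 1397 genes that were higher (10.2%) and 2353 that were lower (17.1%), including 26 of the 29 and all 197 of the 197. With the scaled lengths that were tested, the order turned, to 2714 genes higher (19.8%) and 1795 lower (13.1%). A naive-only region was nearest to 132 of the 197, and a SOX2+-only region to 19 of the 29. These counts depended on the libraries and the scale. Leaving out any of the 6 libraries left no gene called higher and at most 48 called lower, although all 226 kept their direction. The 48 and 30 called lower without SOX2+ A and without SOX2+ B come from fits in which the 1 remaining SOX2+ library is assumed to vary like the naive ones. With all libraries, 0 higher and 167 lower were called without scaling, against 629 and 142 with all deposited peaks. Of the calls, 12.8% were higher in the fit at equal peak numbers, 0% without scaling, 32.9% with a pseudocount of 4 kb and 81.6% with all peaks. The median log2 difference of all genes was 0.09, and it was −0.16 without scaling and 0.40 with all peaks.

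Of the 10 genes called higher with the largest differences, 9 were at 0 kb in all 4 naive libraries, so that their fitted differences depend on the pseudocount and give no fold. Wt1, the Wilms tumour transcription factor gene, had 6.06 and 5.51 kb in SOX2+ A and B and Car4, a carbonic anhydrase gene, 5.75 and 10.1 kb, with 0 kb in all naive libraries. Dnah12, an axonemal dynein gene, had 8.49 and 11.1 kb in SOX2+ cells and 1.78 kb in 2iLIF B12 alone among naive libraries (log2 difference 3.38, SE 0.64, adjusted p = 0.0392, limma). Cnbd1, Smim19, Vmn1r213, Atf7ip2, Retn and Tcp11 also had no naive coverage.

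The genes called lower held long marked stretches in naive ESCs. Ntn1, which encodes the secreted protein Netrin-1, had 2.97 and 1.05 kb in SOX2+ A and B, 42.5 and 74.4 kb in 2iLIF B9 and B12 and 44.1 and 42.7 kb in NACL B9 and B12 (log2 difference −3.93, SE 0.28, adjusted p = 0.00358, limma). Its 4 naive-only regions were all intronic, and the longest was chr11:68273071-68291382. Rftn1, encoding a lipid raft protein, had 1.29 and 0 kb against 43.6, 61.7, 18.8 and 21.4 kb (−4.33, SE 0.46, adjusted p = 0.00910, limma). At both genes the lowest naive library lay far above the SOX2+ libraries. Stx3, a syntaxin gene, was at 0 kb in both SOX2+ libraries and at 14.3 to 21.7 kb in the naive ones, and Lhfpl2, with 5 naive-only regions, at 0 against 6.22 to 26.4 kb. Cdh2 encodes N-cadherin and was at 0 kb against 9.42 to 19.5 kb. Stx8, Olfr1417, Ppp2r2c, Agbl4 and Lad1 completed the 10 genes with the largest differences, and Stx8 shares its window with Ntn1. Of the 197, 57 had no held SOX2+ peak in their window. A value of 0 kb refers to held peaks alone. The complete SOX2+ lists did have peaks in both naive-only regions of Stx3 and of Ppp2r2c, and in some but not all of those of Rftn1, Ntn1, Lhfpl2 and Cdh2.

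The nearest gene of a SOX2+-only region was 1 of 1852 protein-coding genes (8.44% of 21938), and that of a naive-only region 1 of 1271 (5.79%). Both kinds of region lay nearest to 184 genes, which is 9.94% of the former and 14.5% of the latter. The genes with most SOX2+-only regions were Tbl1xr1 and Plekha5 with 6 each, then Zfp462, Lrp2, Naaladl2, Sox4, Bbx and Cox7c with 5 each, and Prmt8 and Inhbb with 4 each. Of these, Tbl1xr1 also had 2 naive-only regions and 12 marked in all 6 libraries, of 41 merged regions, and the others had no naive-only region. Zfp462, a zinc finger gene that maintains pluripotency, had its 5 regions at 107397 to 163344 bp from its start site, and none had a peak in a complete naive list. Sox4 encodes an HMG-box factor related to SOX2, and 4 of its 5 regions did have one. Naive-only regions were most frequent at Mcc, Lhfpl2, Rreb1, Hdac4, Auts2, Bdh1 and Ablim1 with 5 each, and at Ntn1, Sp5 and Dym with 4 each. Of these, Auts2 also had 2 SOX2+-only regions and the others none. Rreb1 is a zinc finger factor of RAS signalling and Hdac4 a histone deacetylase. Sp5 is a direct target of Wnt signalling.

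The members of 18 gene lists were read against the shares of all genes. Of all genes tested, 10.2% were higher and 17.1% lower without overlap by unscaled length, 19.8% and 13.1% by scaled length, 19.8% and 18.2% by unscaled length without 2iLIF B12, and 21.4% had an unadjusted p under 0.05. By limma 0.211% of all genes tested were called higher and 1.43% lower. Counts of members higher or lower without overlap are by unscaled length unless stated, and those in other settings are over all annotated members.

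Of the 18 gene lists, Wnt targets had the most members with less H3K4me1 in SOX2+ cells. Of 12 measured Wnt targets, 8 had less covered length in both SOX2+ libraries than in any naive library and none had more, against 17.1% and 10.2% of all genes. With lengths scaled to 1 total, 7 of 12 did (Rnf43 then overlapped) and none was higher, without 2iLIF B12 8 did and none was higher, and with all deposited peaks 4 did and none was higher. Of all genes, 13.1%, 18.2% and 4.46% were lower in these settings. The median log2 difference of the list was −1.05, against 0.09 for all genes. A naive-only region was nearest to 6 of the 13 targets annotated (46.2%, against 5.79% of all genes and 0% to 25% in the other lists), and a SOX2+-only region to 1. With all deposited peaks, none of the 13 had a naive-only region, against 1.75% of all genes. By limma, 2 members were called, both lower, against 1.43% of all genes called lower, and 8 had an unadjusted p under 0.05, against 21.4%.

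Axin2, the feedback scaffold that promotes degradation of β-catenin and the usual reporter of the pathway, had 3.21 and 2.58 kb in SOX2+ A and B, 14.3 and 37.0 kb in 2iLIF B9 and B12 and 11.9 and 28.9 kb in NACL B9 and B12 (log2 difference −2.24, SE 0.35, adjusted p = 0.0272, limma). Cdx1, a caudal homeobox gene, had 8.37 and 5.39 kb against 23.2, 42.8, 16.2 and 28.0 kb (−1.53, SE 0.27, adjusted p = 0.0324, limma). Sp5, the zinc finger target named above, was at 0 kb in both SOX2+ libraries and at 5.62, 23.8, 4.66 and 2.59 kb in the naive ones (adjusted p = 0.0658, limma), with 4 naive-only regions assigned to it. In all 3 genes both SOX2+ libraries were below every naive library, and the third missed the threshold.

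The centres of the strongest naive-only region of Sp5 and of Axin2 are shown because both genes are reporters of Wnt signalling, and those of the strongest SOX2+-only regions of Sox2 and Lrp2 because these genes are described below. They were chosen after their values were seen, and capitals mark motif matches as above.
Sp5, naive-only, chr2:70445540-70445839: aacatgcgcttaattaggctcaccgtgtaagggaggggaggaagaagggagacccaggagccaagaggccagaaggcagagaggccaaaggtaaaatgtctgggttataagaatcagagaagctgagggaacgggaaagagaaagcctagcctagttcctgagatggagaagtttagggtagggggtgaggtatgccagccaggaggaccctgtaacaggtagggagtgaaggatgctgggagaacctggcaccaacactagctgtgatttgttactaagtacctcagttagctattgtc
Axin2, naive-only, chr11:108898367-108898666: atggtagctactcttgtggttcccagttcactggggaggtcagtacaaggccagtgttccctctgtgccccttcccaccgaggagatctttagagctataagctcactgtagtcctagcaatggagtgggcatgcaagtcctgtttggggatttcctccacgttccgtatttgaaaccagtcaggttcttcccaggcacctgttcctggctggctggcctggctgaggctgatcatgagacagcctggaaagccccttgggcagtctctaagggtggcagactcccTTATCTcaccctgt
Sox2, SOX2+-only, chr3:34576204-34576503: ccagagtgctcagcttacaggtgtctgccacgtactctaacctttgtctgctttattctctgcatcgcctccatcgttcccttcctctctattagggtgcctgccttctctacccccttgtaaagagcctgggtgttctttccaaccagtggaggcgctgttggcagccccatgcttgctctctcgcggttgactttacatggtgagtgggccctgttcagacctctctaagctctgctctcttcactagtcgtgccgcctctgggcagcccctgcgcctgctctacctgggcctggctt
Lrp2, SOX2+-only, chr2:69544100-69544399: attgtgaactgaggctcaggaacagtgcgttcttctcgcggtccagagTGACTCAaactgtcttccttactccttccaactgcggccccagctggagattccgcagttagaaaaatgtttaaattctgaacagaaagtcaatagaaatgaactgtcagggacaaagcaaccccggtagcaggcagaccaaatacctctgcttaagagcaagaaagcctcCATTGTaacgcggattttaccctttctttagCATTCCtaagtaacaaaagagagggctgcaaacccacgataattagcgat

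The Sp5 region (chr2:70440509-70450439, intergenic, 24484 bp from the start site) ranked 2577 and 3467 in 2iLIF and 3641 and 4004 in NACL, and it had H3K27ac and SOX2 peaks in both 2iLIF libraries and in no other. The Axin2 region (chr11:108896767-108904295, intergenic, 16054 bp away) had neither. No TCF/LEF string lay in either window. A peak of the complete SOX2+ lists did lie in both regions, below the limit of the held peaks.

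The other Wnt targets fell into regulators of the receptors and transcription factors. Znrf3, a ubiquitin ligase that removes Wnt receptors, had 10.2 and 8.90 kb in SOX2+ cells and 18.99 to 48.7 kb in naive ESCs (−1.43, adjusted p = 0.0928, limma). Its homologue Rnf43 had 10.2 and 5.75 kb against 10.6 to 28.1 kb, and Notum, an enzyme that inactivates Wnt ligands, had 3.63 and 2.93 kb against 8.40 to 11.6 kb. Lgr5, the R-spondin receptor, had 1.48 and 1.49 kb against 3.88 to 8.27 kb. All 4 were lower without overlap and none of them passed the threshold. The transcription factor gene Tcf7 had 3.36 and 5.65 kb against 8.01 to 13.5 kb. Its relative Lef1 had 12.2 and 10.2 kb in SOX2+ cells, 0 and 2.18 kb in 2iLIF and 13.8 and 24.1 kb in NACL, so that SOX2+ cells lay between the 2 naive media. The values of Nkd1, T and Dkk1 overlapped, and Apcdd1 had too little coverage for a test.

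**Figure D5:**
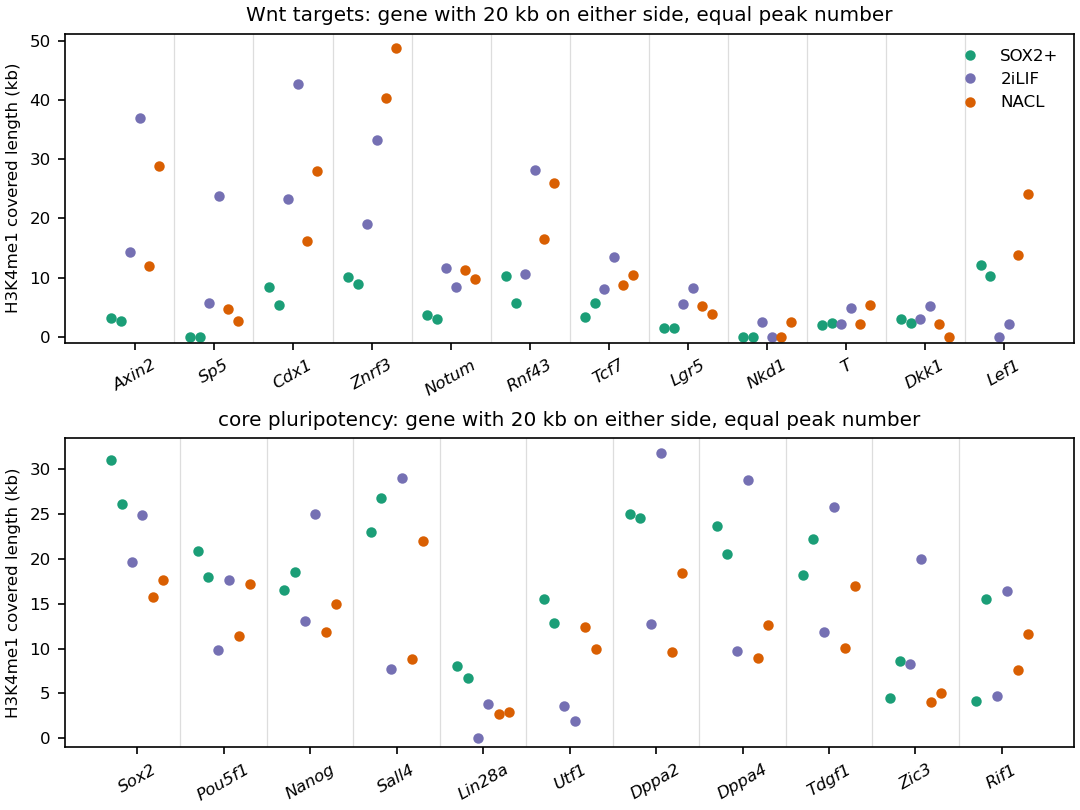
Unscaled H3K4me1 covered length in kb (vertical axis) of 12 Wnt targets (top) and 11 core pluripotency genes (bottom), with 20 kb on either side of each gene, at 24700 peaks per library; each point is a library, 2 per culture condition. Both SOX2+ libraries lay below all 4 naive libraries at 8 Wnt targets, and above them at Sox2, Pou5f1, Lin28a and Utf1.

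All 11 core pluripotency genes, which mark the labelled cell type, had H3K4me1 in both SOX2+ libraries. Of them, 4 had more covered length in both SOX2+ libraries than in any naive library and none had less. With scaled lengths 9 did, and without 2iLIF B12 also 9, against 19.8% of all genes in both settings and 10.2% in the first count. The median log2 difference was 0.84, but that of 11 housekeeping genes was 0.78, with 3 of 11 higher without overlap and 5 of 11 under either of those settings. None of either list passed the limma threshold, with 7 and 4 members at an unadjusted p under 0.05. The median of the core genes was thus close to that of the housekeeping genes.

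Sox2 had 31.0 and 26.2 kb in SOX2+ A and B, 19.7 and 24.9 kb in 2iLIF and 15.7 and 17.7 kb in NACL (log2 difference 0.84, SE 0.21, adjusted p = 0.0782, limma). It was the core gene with most SOX2+-only regions, 4, beside 5 marked in all 6 libraries. The strongest (chr3:34575250-34577279, in an annotated intron, 73126 bp from the start site) had SOX2 peaks in all 3 SOX2+ libraries and in 2iLIF B12, no H3K27ac peak in any library and no H3K4me1 peak in a complete naive list. Pou5f1, which encodes OCT4, had 20.9 and 17.97 kb against 9.87 to 17.6 kb. The RNA-binding protein gene Lin28a had 8.03 and 6.75 kb against 0 to 3.87 kb, and the chromatin factor gene Utf1 15.5 and 12.8 kb against 1.97 to 12.4 kb. In Utf1 the 2iLIF libraries (3.59 and 1.97 kb) lay well below the NACL libraries (12.4 and 9.92 kb).

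Naive pluripotency genes went both ways. Of 13 members, 1 was higher without overlap and 3 were lower, against 10.2% and 17.1% of all genes. These numbers were 3 and 3 with scaled lengths, against 19.8% and 13.1%, and 4 and 3 without 2iLIF B12. None passed the limma threshold, and 4 had an unadjusted p under 0.05, with a median of 0.07. Zfp42, which encodes REX1, had 20.5 and 26.4 kb in SOX2+ cells and 6.43 to 11.7 kb in naive ESCs (1.55, adjusted p = 0.0556, limma). Klf5 had 8.43 and 0.767 kb against 11.3 to 35.8 kb, and Tfcp2l1, a target of both LIF and CHIR99021, had 27.9 and 25.7 kb against 39.2 to 63.4 kb. Nr5a2 was lower too, at 30.8 and 36.8 kb against 42.7 to 72.7 kb. No naive pluripotency gene had a naive-only region, whereas Klf4 and Nr5a2 had 2 SOX2+-only regions each and Esrrb had 1.

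Feedback and target genes of ERK signalling, which PD0325901 blocks in 2iLIF, were examined for the same classes. A SOX2+-only region was nearest to 7 of 18 genes (38.9%, against 8.44% of all genes and 7.69% to 36.4% in the other lists), and a naive-only region to 3 of 18 (16.7%, against 5.79% of all genes). With 12350 peaks per library the first number was 3, against 5.52% of all genes, and with all deposited peaks it was 13, against 31.6%. The 7 were the phosphatase gene Dusp5, the inhibitors Spry4, Spred1 and Spred2, the ETS factor gene Etv1 and the immediate-early genes Egr1 and Fos. By covered length 1 of 17 members was higher without overlap (against 10.2% of all genes) and none was lower. With scaled lengths and without 2iLIF B12 3 were higher, against 19.8% of all genes in both, and with all deposited peaks 6 were, against 18.8%. None passed the limma threshold and 2 had an unadjusted p under 0.05. The gene higher by unscaled length was Egr1, with 2.58 and 1.74 kb in SOX2+ cells and 0 kb in every naive library.

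In some of these genes the 2 naive media were apart, and SOX2+ cells lay nearer to one or the other. Spry4 had 30.8 and 32.5 kb in SOX2+ A and B, 11.9 and 19.4 kb in 2iLIF and 32.5 and 35.5 kb in NACL, so that SOX2+ cells were close to NACL. Spred1, at 7.48 and 4.38 kb, 1.93 and 1.94 kb, and 19.5 and 16.1 kb, was nearer to 2iLIF. Dusp4, a phosphatase gene, had covered length in its gene body and 20 kb flanks in NACL alone, with 4.31 and 3.90 kb, although 1 region assigned to it was marked in all 6 libraries. With scaled lengths, 6 of 17 ERK response genes were lowest in both 2iLIF libraries (Dusp5, Etv1, Etv4, Etv5, Spred1 and Spry4), against 13.4% of all genes. This grouping was chosen after the values were seen, and without scaling the number was 4, against 5.27% of all genes. With scaled lengths the same held for 4 of 8 genes of DNA methylation (Dnmt1, Dnmt3a, Dnmt3b and Dnmt3l) and for 6 of 13 formative genes, among them Lef1, Pou3f1 and the genes Dnmt3a and Dnmt3b, but without scaling for 2 of 8 and 3 of 13. Dnmt3a, a de novo methyltransferase, had 28.8 and 31.0 kb in SOX2+ cells, 5.53 and 15.6 kb in 2iLIF and 14.2 and 24.8 kb in NACL. Of the 8 DNA methylation genes, 2 (Dnmt1 and Dnmt3a) were higher in SOX2+ cells without overlap, against 10.2% of all genes, and none was lower. With scaled lengths 5 were higher, without 2iLIF B12 4, against 19.8% of all genes in both, and with all deposited peaks 5, against 18.8%. None passed the limma threshold, with 4 at an unadjusted p under 0.05.

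In the Nodal and BMP pathways single members were called and the lists did not move as a whole. Smad3, the effector of activin and Nodal receptors, had 1.502 and 2.66 kb in SOX2+ A and B, 20.6 and 32.1 kb in 2iLIF and 15.2 and 16.5 kb in NACL (−2.58, SE 0.29, adjusted p = 0.00981, limma). Its partner Smad2 had 3.05 and 4.88 kb, 0 and 0 kb, and 13.3 and 9.27 kb, which overlapped between SOX2+ and naive libraries, and it had 3 SOX2+-only regions. Of 14 Nodal and activin genes, 1 was higher and 2 were lower without overlap, against 10.2% and 17.1% of all genes, with a median of 0.31. These numbers were 3 and 2 with scaled lengths and 3 and 3 without 2iLIF B12. Bmp4, a ligand that acts with LIF in self-renewal, was at 0 kb in SOX2+ cells and at 15.1, 8.70, 13.3 and 5.66 kb in naive ESCs (−3.42, SE 0.57, adjusted p = 0.0297, limma). A complete SOX2+ list had a peak in its naive-only region. Bmp4 was the only called gene among 12 of its list, where 1.43% of all genes were called lower. The BMP target Id4 and the inhibitor Smad6 were lower without overlap and did not pass, and the list had 1 higher and 3 lower of 12 in all 3 settings. In the LIF pathway, 2 of 6 measured genes (Stat3 and Socs3) were lower without overlap, against 17.1% of all genes. The number was 1 with scaled lengths, 2 without 2iLIF B12 and 0 with all deposited peaks or with 12350 peaks per library, and by limma none was called and 1 had an unadjusted p under 0.05.

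Markers of other cell types that a sort could admit gave no called gene. As 0.211% of all genes were called higher and 1.43% lower, few calls could arise in lists this short. Of 18 primitive endoderm genes, 3 were higher without overlap and 3 lower (median 0.44), against 10.2% and 17.1% of all genes. These numbers were 4 and 2 with scaled lengths and 4 and 3 without 2iLIF B12. None passed the limma threshold, with 7 at an unadjusted p under 0.05, against 21.4% of all genes. Lrp2, which encodes the endocytic receptor megalin of the visceral endoderm, had 21.6 and 27.6 kb in SOX2+ A and B, 0 and 7.05 kb in 2iLIF and 2.35 and 4.05 kb in NACL (3.23, SE 0.67, adjusted p = 0.0538, limma). Of its 5 SOX2+-only regions, 4 had no peak in a complete naive list, and the strongest (chr2:69541951-69548095, intronic) had SOX2 peaks in all 3 SOX2+ libraries and in 3 of the 4 naive ones. Dab2, an adaptor that acts with megalin, had 8.07 and 6.97 kb against 0 to 4.34 kb and 3 SOX2+-only regions. In contrast, the laminin gene Lama1 had 2.00 and 0 kb against 4.63 to 33.1 kb. The GATA6 gene itself (Gata6) had 10.1 and 13.2 kb against 1.37 to 10.5 kb and overlapped.

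Of 11 trophoblast genes, 3 were lower without overlap and none was higher (median −0.22), and of 8 fibroblast genes, 2 were lower and none was higher (median −0.10), against 17.1% and 10.2% of all genes. No gene of either list was called by limma, with 4 and 2 at an unadjusted p under 0.05. Among the trophoblast genes, Krt8 and Gata2 were at 0 kb in both SOX2+ libraries and above 0 in every naive one. The GATA factor gene Gata3 went the other way, with 12.8 and 19.6 kb in SOX2+ A and B, 3.61 and 14.1 kb in 2iLIF and 1.72 and 2.66 kb in NACL, and 2 SOX2+-only regions (log2 difference 2.02, adjusted p = 0.0746, limma). It overlapped through 2iLIF B12 alone. Of the fibroblast genes, the collagen gene Col1a1 was at 0 kb in SOX2+ cells and at 3.02 to 9.00 kb in naive ESCs. Col3a1 had 5.11 and 4.69 kb against 0 to 7.14 kb and Prrx1 1.98 and 3.75 kb against 0 to 3.60 kb, both with overlap. Twist2, Acta2 and Thy1 were at 0 kb in SOX2+ cells but also in 2 or 3 of the naive libraries, and Dcn and Lum were at 0 in all 6. With scaled lengths, and also without 2iLIF B12, 2 trophoblast genes and 1 fibroblast gene were higher without overlap and the numbers lower did not move.

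The remaining lists gave 2 called genes, both lower, where 1.43% of all genes were called lower. Mesendoderm genes had a median of −0.64 with 3 of 9 lower without overlap, neural genes 1.07 with 1 of 7 higher and 1 lower, and formative genes 0.37 with 2 of 13 higher, 2 lower and 1 called, Cdh2, against 10.2% and 17.1% of all genes. With scaled lengths 1 mesendoderm gene was higher and 3 lower, 3 neural genes higher and 1 lower, and 3 formative genes higher and 1 lower. Without 2iLIF B12 these numbers were 0 and 4, 2 and 1, and 2 and 2. With all deposited peaks they were 1 and 3, 7 and 0, and 7 and 1, against 18.8% and 4.46% of all genes. Of 12 hypoxia and glycolysis genes, 3 were higher without overlap (Adm, Pdk1 and Car9) and 2 lower, which became 4 and 1 with scaled lengths and 4 and 2 without 2iLIF B12. The vasodilator peptide gene Adm had 10.3 and 10.2 kb against 0 to 2.08 kb, with 3 SOX2+-only regions (2.62, adjusted p = 0.0681, limma). Of 15 sterol and lipid genes, 3 were lower without overlap (against 17.1% of all genes) and none was higher, and 3 were lower and 1 higher in both other settings. Fasn, which encodes fatty acid synthase, was called, at 0 kb in SOX2+ cells and 5.18 to 14.8 kb in naive ESCs (−3.35, SE 0.48, adjusted p = 0.0207, limma), and the desaturase genes Scd1 and Scd2 were lower too without passing. A complete SOX2+ list had a peak in the naive-only region of Fasn. YAP and SRF targets had a median of 0.08 with 1 of 10 lower without overlap and none higher, but 2 higher and none lower with scaled lengths and 4 higher and 2 lower without 2iLIF B12. By limma no gene of the mesendoderm, neural, hypoxia or YAP lists was called, with 2, 3, 4 and 1 at an unadjusted p under 0.05.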

How the data were processed

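H3K4me1 was profiled by CUT&RUN in the 6 libraries compared, beside H3K27ac, SOX2 and GATA6 libraries of the same series, and groups were taken from the submitters' labels. Per the labels' processing notes, tools included cutadapt 1.18, Bowtie2 2.3.4.1, SAMtools 1.9, Picard 2.9.1, bedtools 2.27.1, deepTools 3.2.0 and SEACR, on mm10. The authors called peaks in each library against IgG, and the deposited lists give each peak's total and highest coverage signal in whole numbers on the library's own scale. Because read depth is unknown, signal only ranked peaks within a library, so equal peak numbers are not equal sensitivity. The file names call the histone lists relaxed and the methods give the other mode.

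Held peaks of the autosomes and sex chromosomes were merged at an overlap of 1 bp and assigned to the nearest protein-coding start site of GENCODE M21. Sequence came from GRCm38.p6 (RefSeq). Covered length was tested with limma 3.58.1 (trend and robust) in R 4.3.3 on log2(kb + 1), with Benjamini-Hochberg adjustment over 13740 genes. Library shares were compared with exact permutation tests, 2-sided, over 15 splits (2 against 4) or 35 splits (3 against 4). Python 3.11.15, NumPy 2.4.6, pandas 2.3.3, SciPy 1.17.1 and matplotlib 3.10.9 were used. The fits and merging were tested on simulated data. p-values measure the spread between these libraries, which may be technical.

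Genes named were the 10 with the largest called difference in each direction without overlap, the 10 with most regions of each class, the 5 strongest regions of each class, the called members of 18 gene lists (naive and core pluripotency, formative, primitive endoderm, trophoblast, fibroblast, mesendoderm, neural, Wnt, ERK, LIF, Nodal, BMP, YAP and SRF, hypoxia, sterol, DNA methylation, housekeeping), and members whose values the text turns on, chosen after they were seen. Regions, lists and tests were chosen with earlier results of these data known. The IgG samples and 2 KOSR histone libraries whose labels conflict were left out. Of the genes this rule names, 1 is not reported here.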

Additional observations from a re-analysis of the deposited data

Results flagged for a closer look

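Of 44 measures of 4 naive libraries examined, 6 had 1 library far from the other 3, where chance would flag about 1 in 20. In 5 that was the H3K4me1 library of 2iLIF B12, and in the other the separate H3K27ac library of 2iLIF B12. The held H3K4me1 peaks of 2iLIF B12 covered 138.1 Mb and had a median width of 4286 bp, whereas the other naive libraries covered 74.99 to 79.5 Mb with medians of 2347.5 to 2526 bp. The H3K27ac peaks of 2iLIF B12 lay at 56.9% of the regions marked in all 6 H3K4me1 libraries, slightly below the 57.4% to 57.5% of the other 3. H3K4me1 covered length in 2iLIF B12 was 1.78 kb at Dnah12, where the others were at 0 kb, 74.4 kb at Ntn1, where they had 42.5 to 44.1 kb, and 31.1 kb at Lad1, where they had 8.57 to 11.9 kb. The wider peaks move with the covered lengths of this H3K4me1 library, and their part in them was not tested.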

How the results depend on the processing

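The sizes of the classes (2286 SOX2+-only, 1544 naive-only and 7232 in all 6) moved with the peaks that entered them. They were 11304, 430 and 11417 with all deposited peaks, 1403, 821 and 3039 with 12350 peaks per library, and 3533, 540 and 4681 at equal covered length. With 1 kb around the highest signal, SOX2+-only regions numbered 3550 and regions in all 6 numbered 3722. Judging absence on complete lists left 874 SOX2+-only and 247 naive-only regions. Naive-only regions were 2995 with naive clone B12 alone. SOX2+-only and naive-only regions were 3682 and 4828 against 2iLIF alone, and 4399 and 4007 against NACL alone. At least 1 kb from a start site, 4041 regions lay in all 6. Leaving out 1 library gave 2464 to 5193 SOX2+-only regions, where 4630 and 5193 came without SOX2+ A and without SOX2+ B, and 1942 to 2226 naive-only regions.

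The promoter share difference (2.09 points) turned to −0.931 with 12350 peaks and to −0.652 at 5 kb, and that of covered length (−20.2 Mb) to 14.1 Mb with all peaks. Among motifs the difference for ESRRB became −0.0217 and that for AP-1 −0.0230 with all peaks, and that for SOX became 0.739 with 12350 peaks and 0.485 at least 1 kb from a start site, and ran from −0.377 to 0.211 with 1 library left out. The H3K27ac difference at SOX2+-only regions (−1.51) became 2.08 with peaks ranked by total signal and 0.543 with absence judged on complete lists. The other differences at the classes and that of GC content kept their direction in every alternative run.

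Genes called higher (29) numbered 0 without scaling, 629 with all peaks, 9 and 101 with pseudocounts of 0.25 and 4 kb, 57 over the gene body alone and 53 with 50 kb flanks. Genes called lower (197) numbered 305 with 50 kb flanks. With clone as a term, and with naive clone B12 alone, limma called 0 higher and 0 lower, with 2219 and 2345 genes at an unadjusted p under 0.05, and all 226 kept their direction. Leaving out 1 library gave 0 to 0 higher and 0 to 48 lower, with 1459 to 3228 genes at an unadjusted p under 0.05. The cause of these losses was not tested. The fit with clone as a term used all 6 libraries and the same genes, and the others used fewer libraries. Over the single genes and motifs named and all alternatives, 211 values kept their direction and side of the threshold, and 186 kept their direction but no longer passed. The 7 that turned are the motif values above. No motif value could pass 0.05 with so few libraries, so those among the 211 show a kept direction alone. All 186 that no longer passed are values of called genes.

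Among lists, in alternatives chosen after seeing the data, lower Wnt targets fell from 8 to 4 with all peaks and to 4 with 12350 peaks, against 17.1%, 4.46% and 11.4% of all genes. Those with a naive-only region went from 6 to 0 with all peaks and to 5 with 12350 peaks. ERK genes with a SOX2+-only region went from 7 to 13 with all peaks and to 3 with 12350 peaks, and core pluripotency genes from 4 to 6 and to 2. Of all genes, 8.44%, 31.6% and 5.52% had such a region in these settings. No paired analysis was possible because the SOX2+ libraries (A and B) and the naive ones (B9 and B12) share no replicate numbers.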
